A study of Danio rerio with 85 samples.

Results

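H3K27me3 regions without Rnf2 were stretches of the zebrafish genome that had a peak of H3K27me3, histone H3 trimethylated at lysine 27, in both wildtype ChIP-seq replicates and a peak of Rnf2 in neither. Peaks at most 1000 bp apart were merged per sample, and peaks overlapping an input peak were dropped. The H3K27me3 lists of the wildtype replicates wt1 and wt2 were intersected base by base, and a common stretch was kept if not a single base of it lay in an Rnf2 peak of wt1 or wt2. This left 989 regions without Rnf2 among the 1543 H3K27me3 regions shared by both wildtype replicates (64.1%). Of the other 554 regions, 423 overlapped Rnf2 in both replicates and 131 in one of them. The wildtype H3K27me3 and Rnf2 peaks chose these regions, so their wildtype widths, folds and distances to Rnf2 are given as a description, and tests are confined to the mutant samples.

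H3K27me3 is laid down by Polycomb repressive complex 2 (PRC2), whose catalytic subunit is Ezh2 or Ezh1. Rnf2, also called Ring1b, is the E3 ubiquitin ligase of Polycomb repressive complex 1 (PRC1), which ubiquitinates histone H2A. In the canonical form of PRC1 a chromodomain subunit binds H3K27me3, while variant PRC1 complexes reach chromatin without one. The mark and the complex therefore share many target genes, which in vertebrate embryos include developmental transcription factors such as the Hox genes.

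The ChIP-seq samples came from whole embryos at 3 days post fertilization (dpf), of a TU/TLF mixed background. The wildtype samples wt1 and wt2 are labelled myl7:GFP_rnf2+/+, and the mutant samples r2, r3 and r4 are labelled myl7:GFP_rnf2-/-. Each sample is a pool of embryos, both genotypes carry the *myl7*:GFP transgene, which marks cardiomyocytes, and 1 input was sequenced per genotype. The mutants were picked by their phenotype among the offspring of heterozygous fish and are therefore zygotic mutants, whose mothers carried a functional allele. RNA-seq came from pools of whole embryos of the same age, with 8 libraries labelled wild type of strain TLF and 7 labelled rnf2-/- of TU/TLF mixed background, so that by these labels the genotype and the strain cannot be told apart in the RNA. By the study's methods, though, control embryos shared the mutants' background, which the labels do not say. All positions are those of the peak files, on GRCz10. A gene annotation of that build was not used here, and so no region is assigned to a gene by its position and no sequence is shown.

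The deposited peak lists hold no read counts, and the depth behind a peak is unknown. After merging and removal of input peaks, Rnf2 had 1050 peaks in wt1 and 1049 in wt2, and between 18 and 38 in the mutants. H3K27me3 had 2154 and 1940 peaks in the wildtype samples, 2861 in r2, 2855 in r4 and 1031 in r3. The list of r3 stood apart in each measure of extent, since it covered 728362 bp while r2 covered 5207154 bp and r4 covered 5580975 bp. The lowest −log10 q was between 2.01 and 2.04 in the H3K27me3 lists and between 1.02 and 1.26 in the Rnf2 lists. With Rnf2 peaks that overlap an input peak left in, 987 regions remained. A region called without Rnf2 thus had no Rnf2 peak clear of input peaks even at the more lenient limit. A region without an Rnf2 peak may still hold Rnf2 below that limit. None of the 989 regions overlapped an Rnf2 peak of any mutant, which allows a share of up to 0.303%, and 4 of the 554 regions with Rnf2 did.

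The regions without Rnf2 were narrow and of modest enrichment. Their median width was 661 bp, with quartiles of 326 and 1314 bp and a range from 3 to 12421 bp, and the regions with Rnf2 had a median width of 4411 bp. Regions up to 1000 bp made up 654 of the 989 (66.1%), and 40 regions (4.04%) were wider than 4000 bp, compared to 300 of the 554 regions with Rnf2 (54.2%). The regions without Rnf2 thus covered 1073 kb, or 25.96% of the bases of all shared H3K27me3 regions. A common stretch can be no wider than the narrower of the peaks that define it. The median width of the peaks behind the regions without Rnf2 was 1425 bp in wt1 and 851 bp in wt2. Regions narrower than 100 bp numbered 32, each of them a part of wider peaks.

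The fold enrichment of the authors' peak calls is over input, and each region took the highest fold of the merged peak it lay in. It had a median of 3.83 in wt1 and 4.07 in wt2 at the regions without Rnf2. At the regions with Rnf2 these medians were 4.42 and 4.68. The folds of both classes overlapped, since the lowest fold with Rnf2 was 3.31 in wt1 and the upper quartile without Rnf2 was 4.12. The highest fold without Rnf2 was 5.56 in wt1 and 6.08 in wt2, while regions with Rnf2 reached 17.3 and 19.3. Broad peak calling marks stronger stretches inside a broad peak, and the peaks of 390 regions without Rnf2 (39.4%) held such a stretch in both wildtype replicates, whereas those of 221 (22.3%) held none in either. With Rnf2, these shares were 89.9% and 1.44%.

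**Figure D1:**
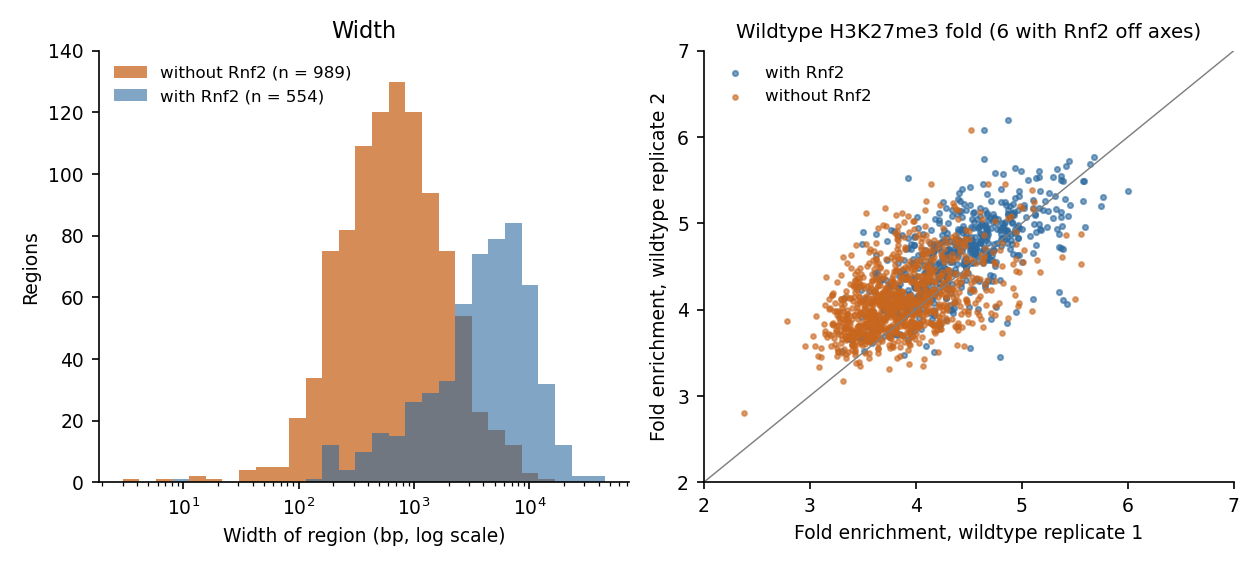
Left, number of H3K27me3 regions by width in bp on a log scale, for 989 regions without Rnf2 (orange) and 554 with Rnf2 (blue). Right, fold enrichment of each region's peak in wildtype replicate 1 against wildtype replicate 2, 1 point per region, with the line of equal values; 6 regions with Rnf2 have a fold above 7 and lie off the axes. The regions without Rnf2 centre on 661 bp and those with Rnf2 on 4411 bp, and the folds of the 2 classes overlap.

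The widest region without Rnf2 lay on chromosome 2 from 29721692 to 29734112 and measured 12421 bp. Its fold was 4.65 in wt1 and 4.87 in wt2, and the nearest Rnf2 peak was 206 kb away. A peak as wide as in wildtype was found in r2 (12724 bp, fold 5.79) and in r4 (12935 bp, fold 6.30), and a peak of 2059 bp with a fold of 6.94 in r3. The next widest, on chromosome 5 from 62814950 to 62825861 and on chromosome 7 from 40602635 to 40612684, measured 10912 and 10050 bp. They too kept nearly their whole width in r2 and r4, and 6600 and 7552 bp of peak in r3. The fourth, on chromosome 20 from 22581132 to 22589830 (8699 bp), lay 3.24 kb from an Rnf2 peak, and the fifth, on chromosome 9 from 44488666 to 44497078 (8413 bp), lay 415 kb from one. Each of the 5 widest regions had an H3K27me3 peak in all 3 mutants.

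The regions with the highest wildtype fold, taking the lower of both replicates, were a region on chromosome 16 from 287365 to 294258 (folds 5.12 and 5.25), one on chromosome 9 from 32939077 to 32945127 (5.11 and 5.16) and one on chromosome 13 from 41885313 to 41887798 (5.10 and 5.39). A second region on chromosome 9, from 53734777 to 53739792, followed with 4.999 and 5.18. All 4 had a peak in every mutant, and the region on chromosome 13 lay 1.28 kb from an Rnf2 peak. The fifth, on chromosome 23 from 124534 to 125369, had folds of 4.99 and 5.21 in wildtype, 5.54 in r2 and 5.44 in r4, and no peak in r3.

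The limit of the rule is a single base. The regions just inside it lay 14, 53 and 68 bp from an Rnf2 peak, on chromosome 5 from 15992033 to 15992599 and from 42470781 to 42470918, and on chromosome 18 from 38429087 to 38429483. Their wildtype folds were between 3.83 and 4.70. Just outside it, by the number of shared bases, were regions that shared 10, 33 and 55 bp with an Rnf2 peak of one replicate. The first was itself only 10 bp wide and so lay wholly within Rnf2. Their wildtype folds were between 3.79 and 4.59. The folds on either side of the limit overlapped, and all 6 regions were narrower than 1000 bp.

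How often the regions kept H3K27me3 without Rnf2 protein was asked of the mutant lists, which the rule did not use. An H3K27me3 peak overlapped 781 of the 989 regions in r2, or 79.0% (95% Wilson interval 76.3 to 81.4%). In r4 it overlapped 792, or 80.1% (77.5 to 82.5%), and in r3 249, or 25.2% (22.6 to 27.97%). Of all 1543 shared regions, 83.1% were kept in r2, 36.1% in r3 and 85.5% in r4. All 3 mutants kept 240 regions without Rnf2 (24.3%, interval 21.7 to 27.03%), beside 35.5% of all shared regions. Leaving out r3, the share kept in both r2 and r4 was 72.9%. These intervals cover counting error only.

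The regions kept in r3 were mostly a subset of those kept in the other mutants, since 240 of the 249 regions kept in r3 (96.4%) were also kept in r2 and r4. A further 481 regions (48.6%) were kept in r2 and r4 and missed in r3. No mutant kept 135 regions (13.7%), r4 alone kept 67 and r2 alone kept 57. The part of the shorter peak list of r3 in these counts was not tested.

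Among the regions kept in a mutant, the median share of a region's bases under its peaks was 100% in r2 and in r4, and 35.6% in r3. Of the bases of all 989 regions, peaks covered 82.5% in r2, 83.8% in r4 and 16.3% in r3. At the regions with Rnf2 they covered 73.1%, 86.8% and 14.4%. For width, only the widest mutant peak over a region was taken. It was wider than the wt1 peak at the same place by a median ratio of 1.10 in r2 and 1.07 in r4. The ratio to the wt2 peak was 1.52 and 1.47. In r3 these ratios were 0.257 and 0.328. At the regions with Rnf2 the peaks of r2 and r4 were narrower than those of wt1, with median ratios of 0.735 and 0.858, and the ratios to wt2 were 0.913 and 1.01. The wildtype peaks differed in width as well. At the regions kept in r2 the median wt1 peak was 1539 bp without and 7083 bp with Rnf2. The ratios were not compared at like widths, and a single mutant peak can count for several regions. The median fold of the kept regions without Rnf2 was 4.97 in r2, 5.002 in r3 and 5.21 in r4. Every one of these is above the wildtype medians of 3.83 and 4.07, and the medians of whole mutant lists (4.71 to 5.09) also exceeded those of whole wildtype lists (3.79 and 4.11).

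The regions with the highest fold in mutants, taking the lowest of the 3, were on chromosome 4 from 5184654 to 5187050 (6.55, 6.07 and 6.38 in r2, r3 and r4), on chromosome 3 from 25681805 to 25683195 (6.20, 6.11 and 6.05) and on chromosome 7 from 20564654 to 20565374 (5.80, 6.04 and 6.24). The widest region, on chromosome 2, was the fourth, with 5.79, 6.94 and 6.30, and a region on chromosome 14 from 2478048 to 2483322 the fifth, with 5.73, 5.63 and 6.33. All 5 lay more than 80 kb from the nearest Rnf2 peak.

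The widest regions kept in no mutant were much narrower than the widest regions overall. They were on chromosome 7 from 36179120 to 36180357 (1238 bp) and from 35777366 to 35778488 (1123 bp), on chromosome 23 from 36023463 to 36024543 (1081 bp), on chromosome 17 from 21757385 to 21758442 (1058 bp) and on chromosome 1 from 23389281 to 23390247 (967 bp). Their wildtype folds lay between 3.41 and 4.72, within the range of the other regions. The first was 140 kb from Rnf2, and the other 4 lay 0.990, 0.531, 1.80 and 3.40 kb from an Rnf2 peak. The region on chromosome 23 was a part of a wt1 peak of 29700 bp.

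Whether a region was kept went with its width. Of the regions without Rnf2 up to 500 bp, 63.2% were kept in r2, 8.95% in r3 and 62.4% in r4. Of those over 1000 and up to 2000 bp, 95.5%, 38.6% and 97.5% were kept. All 40 regions over 4000 bp were kept in r2 and in r4, and 36 of them (90.0%) in r3. Kept regions also had more wildtype signal. In the lowest quartile of wildtype fold, taking the lower of both replicates, 72.6%, 12.9% and 72.2% were kept in r2, r3 and r4, and in the highest quartile 89.1%, 42.1% and 91.1%. Of the regions with a stronger stretch in both wildtype replicates, 43.1% were kept in r3, compared to 7.69% of those with none.

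On average over the mutants, regions with Rnf2 were kept more often where a single shared base counted, and less often within bins of width. Over all widths 90.6% of them were kept in r2, 55.6% in r3 and 95.1% in r4, so that they exceeded the regions without Rnf2 by 11.6, 30.4 and 15.05 percentage points (mean 19.04 ± 10.003, SD, n = 3 mutants; two-sided exact sign-flip permutation test over the mutants, p = 0.25, the smallest that 3 samples allow). Within bins of width, weighted by the widths of the regions without Rnf2, the difference turned to −9.52, −6.95 and −2.34 percentage points (mean −6.27 ± 3.64, SD, n = 3; the same exact test, p = 0.25). The gap in r2 and r3 was widest over 1000 and up to 2000 bp, where 79.3% of 58 regions with Rnf2 were kept in r2 and 13.8% in r3, beside the 95.5% and 38.6% of 202 regions without Rnf2. The weights favour narrow bins, which hold few regions with Rnf2: 33 up to 500 bp and 41 from 501 to 1000 bp. In r4, 57.6% of the 33 (interval 40.8 to 72.8%) and 82.9% of the 41 were kept. Without Rnf2 these shares were 62.4% and 82.5%. With stricter peak thresholds the difference over all widths was 7.78 percentage points, and where a mutant peak had to cover at least 50% of a region it was 5.67, with the opposite sign in r3 (7.58% with and 8.80% without Rnf2). With input peaks left in place it was 12.8 percentage points and not of 1 sign in all mutants (the same exact test, p = 0.5). With 3 mutants no such difference can pass a threshold of 0.05.

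**Figure D2:**
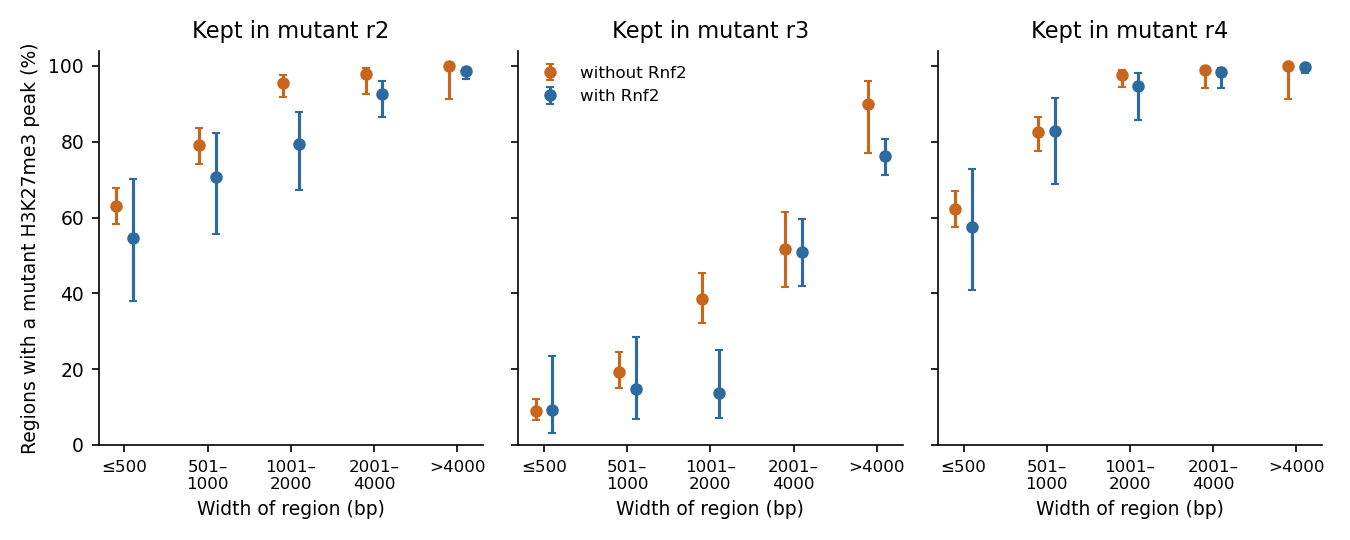
Percent of regions with an H3K27me3 peak in mutant r2, r3 and r4 by width of region in bp, for regions without (orange) and with Rnf2 (blue), with 95% Wilson intervals. A single shared base counts. Without Rnf2 the share kept rises with width in each mutant, from 63.2% to 100% in r2, and in the bin up to 2000 bp the regions with Rnf2 are lower in r2 and r3.

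The median fold of the kept regions was higher with Rnf2 than without in each mutant. The difference of the medians was 0.206 in r2, 0.280 in r3 and 0.590 in r4 (mean 0.359 ± 0.204, SD, n = 3; two-sided exact sign-flip permutation test, p = 0.25, the smallest possible). Within bins of width its mean was 0.328 ± 0.179, and with stricter peak thresholds it was 0.132 and no longer of 1 sign in all mutants (the same exact test, p = 0.5).

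Most regions without Rnf2 lay far from any Rnf2 peak, and a minority lay beside one. The median distance to the nearest wildtype Rnf2 peak was 269 kb, with quartiles of 61.1 and 695 kb, and 7 regions lay on a chromosome or sequence with no Rnf2 peak. Within 5000 bp of an Rnf2 peak lay 139 regions (14.1%), of which 37 were within 1000 bp. Of these 139, 70 were parts of a wildtype H3K27me3 peak that overlapped Rnf2 elsewhere, as were 71 of all 989. The regions beside Rnf2 had a median width of 508 bp and median folds of 3.91 and 4.07. The 850 regions farther away had 690.5 bp and 3.82 and 4.07. These are folds of the whole merged peaks, so the enrichment of the regions themselves was not compared.

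In each of the 3 mutants the share kept was lower beside Rnf2. Of the 850 regions farther than 5000 bp from Rnf2, 84.9% were kept in r2, 27.4% in r3 and 85.1% in r4. Of the 139 regions beside Rnf2, 42.4% were kept in r2 (interval 34.5 to 50.8%), 11.5% in r3 (7.21 to 17.9%) and 49.6% in r4 (41.5 to 57.8%). No mutant kept 45.3% of the regions beside Rnf2 and 8.47% of those farther away. The difference was −42.5, −15.9 and −35.4 percentage points in r2, r3 and r4, and −36.4, −12.6 and −27.8 within bins of width (mean −25.6 ± 12.04, SD, n = 3; two-sided exact sign-flip permutation test, p = 0.25, the smallest possible). It was not confined to the first kilobase, since 51.4% of the regions up to 1000 bp from Rnf2 and 39.2% of those from there up to 5000 bp were kept in r2. Beyond that and up to 10000 bp the share was 78.6% of 28 regions, from there up to 50000 bp 72.7% of 66, and over 50000 bp 86.2%. Among the regions up to 500 bp wide, 24.6% of 69 beside Rnf2 and 71.7% of 311 farther away were kept in r2, and the shares in r4 were 24.6% and 70.7%.

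A peak can also be missed in a second wildtype sample. To set the mutants beside that, the whole H3K27me3 peaks of each wildtype list that overlapped no Rnf2 peak were searched in the other wildtype list and in each mutant. Of 1486 such peaks of wt1 farther than 5000 bp from Rnf2, 54.3% were found in wt2, 69.4% in r2, 19.9% in r3 and 69.5% in r4. Of 159 peaks of wt1 beside Rnf2, 51.6% were found in wt2, and 31.4% in r2, 5.03% in r3 and 37.7% in r4. In the list of wt2 the peaks beside Rnf2 were likewise found less often in each mutant. Its peaks farther from Rnf2 were found in wt1 at 70.6%, in r2 at 71.9%, in r3 at 21.004% and in r4 at 71.0%, and its 181 peaks beside Rnf2 in wt1 at 68.0%, in r2 at 35.4%, in r3 at 8.84% and in r4 at 39.8%.

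Between the wildtype samples, then, peaks beside Rnf2 were found about as often as peaks far from it. Their difference, within bins of width, was 2.65 percentage points for wt1 peaks in wt2 and 0.103 for wt2 peaks in wt1. In the mutants it was −32.8, −13.2 and −25.2 for wt1 peaks in r2, r3 and r4, and −34.4, −9.11 and −27.95 for wt2 peaks. With a single other wildtype sample per list, the wildtype and mutant differences were not tested against each other. For peaks that did overlap Rnf2, the excess over peaks without Rnf2 within bins of width was 11.9 and 8.67 percentage points in the other wildtype sample, and between −15.8 and −0.602 in the mutants.

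**Figure D3:**
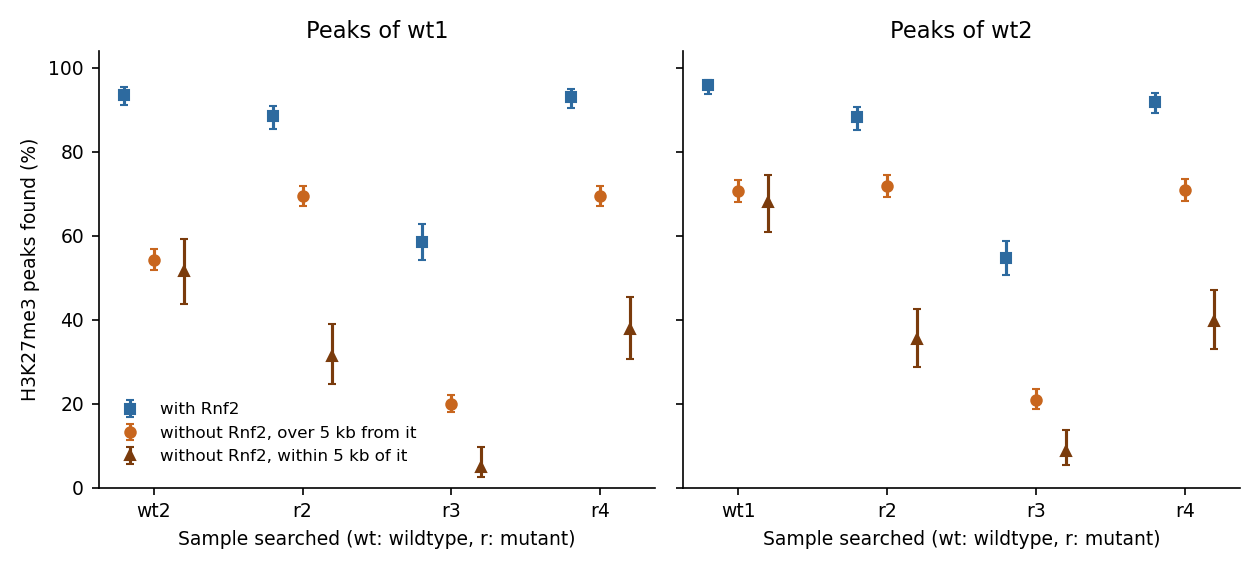
Percent of the H3K27me3 peaks of wt1 (left) and of wt2 (right) that were found in the other wildtype sample and in mutants r2, r3 and r4, with 95% Wilson intervals. Peaks with Rnf2 are blue squares, peaks without Rnf2 and over 5 kb from it orange circles, and peaks within 5 kb of it brown triangles. Circles and triangles lie together in the other wildtype sample (54.3% and 51.6% for wt1) and apart in r2 (69.4% and 31.4%).

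The regions without Rnf2 were spread over all 25 chromosomes, which held 982 of them, and 7 lay on 4 unplaced sequences. Chromosome 1 had the most (66), followed by chromosome 7 (65), chromosome 5 (62) and chromosome 14 (61), and chromosomes 11 and 22 the fewest (18 each). Per megabase, up to the last peak on each chromosome, they ranged from 0.400 on chromosome 11 to 1.18 on chromosome 14. Chromosome 4 was low in both classes, with 0.432 regions without and 0.105 with Rnf2 per megabase. The share of shared H3K27me3 regions that lacked Rnf2 was highest on chromosome 4, at 80.5% of 41 regions (interval 66.0 to 89.8%), and chromosome 10, at 80.0% of 50 (67.0 to 88.8%). It was lowest on chromosome 24, at 45.7% of 46 regions (32.2 to 59.8%). All other chromosomes lay between 54.5% and 74.4%, with intervals that overlapped the overall 64.1%. Neighbouring regions are not independent, and these intervals cover counting error only. A single window of 1 Mb held 18 of the 40 regions without Rnf2 on chromosome 10. Another held 21 of the 61 on chromosome 14.

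**Figure D4:**
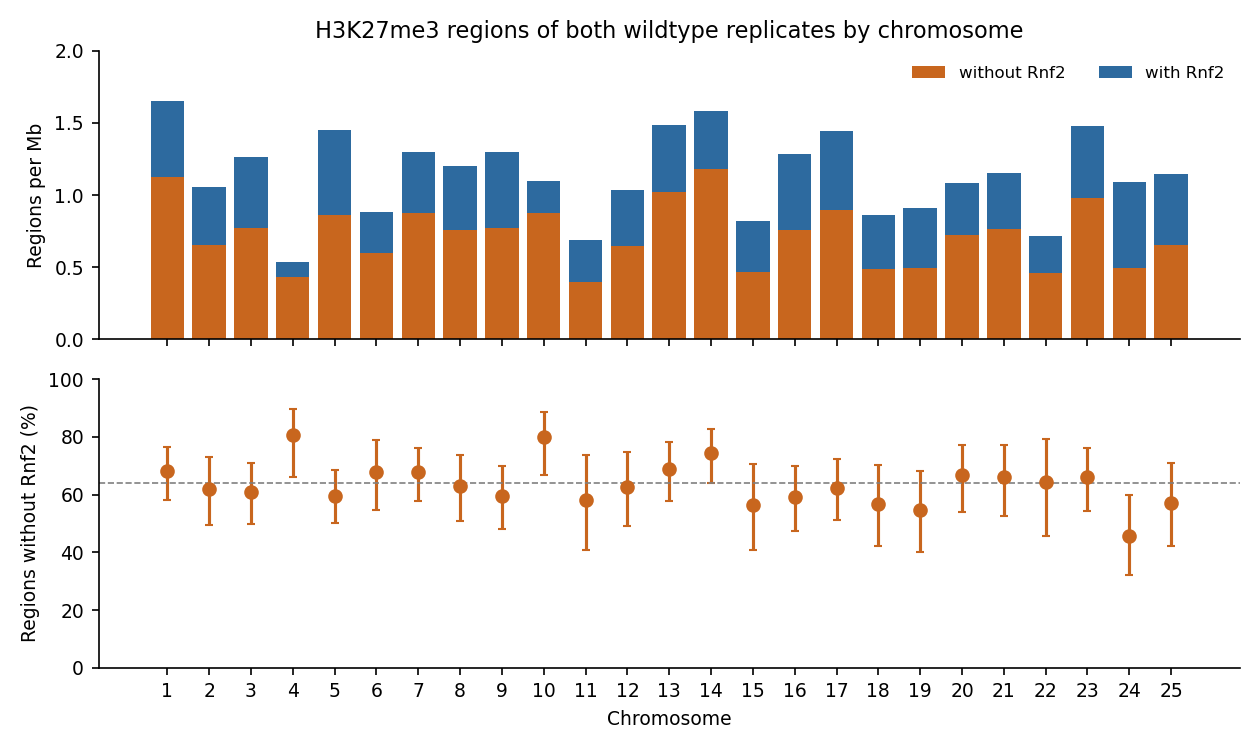
Top, H3K27me3 regions per megabase on each of 25 chromosomes, stacked as regions without (orange) and with Rnf2 (blue). Bottom, percent of these regions without Rnf2 with 95% Wilson intervals and the overall 64.1% as a dashed line. Chromosomes 4 and 10 are highest, at 80.5% and 80.0%, and chromosome 24 is lowest, at 45.7%.

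The regions without Rnf2 mostly stood alone. The median distance from one to the nearest other was 244 kb, and 202 of them (20.4%) had another within 5000 bp. They occupied 582 windows of 1 Mb, of which 356 held a single one and 16 held 5 or more. A pair of windows stood out. On chromosome 14, 21 regions lay between 2025916 and 2568978, with widths from 95 to 5275 bp, wildtype folds from 3.48 to 4.70 and no region with Rnf2 in that window. Of these 21, 20 were kept in r2, 20 in r4 and 5 in r3. On chromosome 10, 18 regions lay between 21555211 and 21848847, with widths from 161 to 2285 bp. That window also held no shared H3K27me3 region with Rnf2. The nearest Rnf2 peak, though, lay 3.01 kb from one of the 18, while on chromosome 14 it was 286 kb away. All 18 were kept in r2, 17 in r4 and 5 in r3. Members of a window share peaks, so these counts are not independent. Those kept on chromosome 10 lay under 10 peaks of r2 and 9 of r4, with 7 of them under a single peak in each, and the 18 regions came from 13 peaks of wt1. Those kept on chromosome 14 lay under 16 peaks of r2 and 16 of r4, and the 21 regions came from 19 peaks of wt1. These windows were chosen for their counts, so the values are a description.

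The genes at these regions could be approached only through the study's own list of promoters. The study grouped H3K27me3 and Rnf2 peaks at promoters of these samples into 5 clusters, and described clusters 2, 4 and 5 as positive for H3K27me3 with Rnf2 near background. Their 888 gene names are therefore a list of genes with such promoters that was chosen on these samples, not a list of genes at the 989 regions, and how many of them lie at those regions was not tested. In the table of gene names, 512 of them (57.7%) matched a single gene with RNA values, and 462 averaged 5 or more normalized counts and entered the test. In the same libraries *rnf2* itself had 497 to 699 normalized counts in wildtype and 116 to 153 in mutants, with no overlap and a log2 fold change of −2.08 ± 0.08 (SE, mutant minus wildtype), as the labels imply.

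The number of these genes that were called depended on the test. With limma's treat, which tests for a change beyond 1 on the log2 scale, with p-values adjusted by Benjamini-Hochberg over all 22685 genes tested and a threshold of 0.1, 8 of the 462 genes were higher in mutants (1.73%) and 6 lower (1.299%). Of all genes tested, 1.01% were higher and 0.908% lower, or 1.91% in either direction, beside 3.03% of the list. The median log2 fold change, on the scale of log2(normalized count + 1), was 0.09 for the list and 0.03 for all genes, and 58.9% of the list and 52.7% of all genes were above 0. limma's plain test, with a change of 1 or more on the log2 scale, called 37 of the list higher and 17 lower, where it called 6.42% and 3.39% of all genes. edgeR on the recovered reads called 11 and 8 of the list, and 1.82% and 1.27% of all genes. Without wildtype libraries 11, 12 and 13 the list had 6 genes higher and 3 lower by limma's treat. By that test *nppb*, *vip*, *dre-mir-10b-2*, *tcf24* and *zp3d.1* lost their call, at adjusted p from 0.1055 to 0.447. The share of all genes called without these libraries was not counted. The genotypes did not overlap in 45 genes of the list that were higher (9.74%) and 26 that were lower (5.63%), beside 6.98% and 9.55% of all genes. In bulk RNA, fewer cells of a type and less RNA per cell cannot be told apart.

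Among the transcription factors, the posterior Hox gene *hoxa9b*, which acts in trunk and fin patterning, was higher in mutants. It had 87.5 to 135 normalized counts in wildtype and 600 to 857 in mutants, a log2 fold change of 2.65 ± 0.10 (SE, 8 and 7 libraries; limma's treat, adjusted p = 2.0e-10). The 2 groups did not overlap, and the mutant median was 693 against a wildtype median of 108. *hoxb10a*, another posterior Hox gene, had 55.3 to 96.6 in wildtype and 193 to 313 in mutants (log2 fold change 1.76 ± 0.12; limma's treat, adjusted p = 0.0003). *gata3*, a zinc finger factor of T cells, neurons and the inner ear, had 37.9 to 67.4 in wildtype and 121 to 151 in mutants (1.38 ± 0.11; limma's treat, adjusted p = 0.0923). In these 3 genes, named because they were called, the genotypes did not overlap.

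The microRNA gene *dre-mir-10b-2*, a member of a family whose genes sit in Hox clusters, was also higher. It had 0 to 4.65 in wildtype and 5.71 to 32.6 in mutants (2.43 ± 0.39; limma's treat, adjusted p = 0.0484). Of 3 further genes that were higher, *duox* encodes a dual oxidase that makes hydrogen peroxide and serves thyroid hormone synthesis, *zp3d.1* belongs to the zona pellucida glycoprotein genes of the egg coat, and *si:ch211-103n10.5* has no name beyond its clone. Their medians were 86.9, 4.59 and 4.42 normalized counts in wildtype and 256, 26.1 and 61.7 in mutants, and none of the 3 overlapped between the genotypes.

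The 6 genes that were lower encode secreted peptides, a retinoic acid enzyme and a further transcription factor. *cyp26b1*, which degrades retinoic acid, had 401 to 508 normalized counts in wildtype and 153 to 204 in mutants (log2 fold change −1.32 ± 0.08; limma's treat, adjusted p = 0.0243). *cbln1*, a secreted organizer of cerebellar synapses, had 213 to 329 and 93.9 to 125 (−1.33 ± 0.10; limma's treat, adjusted p = 0.0649). Both were well measured, and their groups did not overlap. *nppb*, a natriuretic peptide of the heart, had 16.1 to 46.5 in wildtype and 1.22 to 16.6 in mutants (−2.22 ± 0.33; limma's treat, adjusted p = 0.0450), and here the highest mutant library exceeded the lowest wildtype library. The groups also overlapped for *vip*, vasoactive intestinal peptide, at 16.1 to 46.0 and 2.26 to 19.5. *cart4*, of the neuropeptide family of cocaine- and amphetamine-regulated transcript, had 11.6 to 31.96 in wildtype and 0 to 5.72 in mutants, and *tcf24*, a basic helix-loop-helix factor, had 13.3 to 34.9 and 0 to 6.87.

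**Figure D5:**
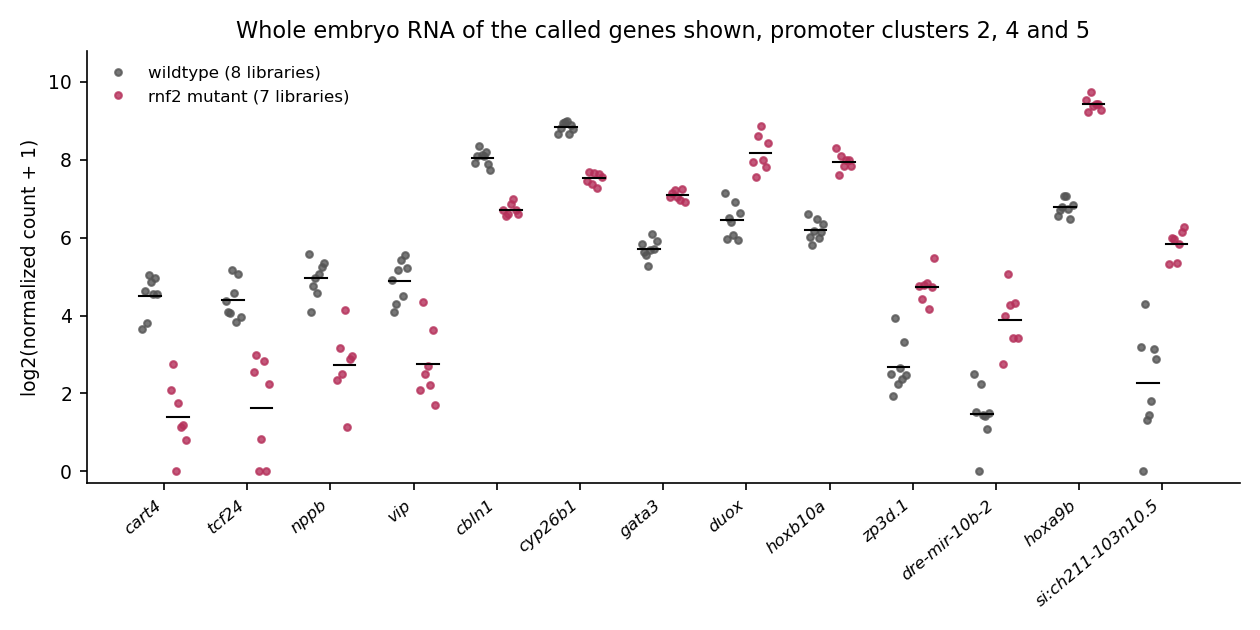
log2(normalized count + 1) in each of 8 wildtype (grey) and 7 *rnf2* mutant (red) whole embryo libraries at 3 dpf, for called genes of the study's promoter clusters 2, 4 and 5, with the mean of each group as a line. *nppb* and *vip* overlap between the genotypes, and the other genes shown do not.

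Calls of limma's treat were counted by family, where 1.01% of all genes tested were higher and 0.908% lower. Of 30 homeobox genes tested, the largest family, 2 were higher (*hoxa9b* and *hoxb10a*) and 0 lower. The homeobox median log2 fold change was 0.35, beside 0.03 for all genes, with a range from −0.37 to 2.65. Of 2 gata genes 1 was higher (*gata3*). No call fell on 3 T-box, 4 sox, 6 fox and 5 basic helix-loop-helix genes counted by symbol, nor on 16 signalling ligands. Their medians were 0.27, 0.07, −0.09, −0.27 and −0.22. The T-box genes ranged from −0.66 to 1.35 and the signalling ligands from −0.76 to 1.43, so single members rose by more than 1 without a call. The symbols counted as basic helix-loop-helix did not include *tcf24*, which was called lower. Most of these families are too small in the list to be read against the share of all genes.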

How the data were processed

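ChIP-seq of Rnf2 and H3K27me3 and RNA-seq of whole embryos, all at 3 dpf, were used. The hearts of the series were not analysed here. The members and gene lists were chosen with earlier results of these data known.

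The authors mapped ChIP reads to GRCz10 with bwa, thinned them by the *Drosophila* reads of each sample and used MACS2 in its broad mode. The deposited lists give each peak's position, a fold enrichment (a ratio to input) and −log10 p and q values. The labels do not state a *Drosophila* spike-in in the descriptions of the Rnf2 samples, though their titles do, so the scaling of these lists is unsure. The H3K27me3 list of wt2 is not marked as normalized in its name, though its peak names are, and the peaks of the Rnf2 list labelled r3 are named wtr. Depth is unknown. The study's minimum width of 100 bp for H3K27me3 peaks removed 0 peaks. Peaks were merged, intersected and counted in Python 3.11.15 with pandas 2.3.3, after the functions were tested on simulated peaks. Overlap meant at least 1 bp. Named regions are the 5 widest, the 5 of highest wildtype fold, the 5 widest kept in no mutant, the 5 of highest lowest fold among those kept in all mutants, and 3 on either side of the limit. Shares have 95% Wilson intervals, and differences a two-sided exact sign-flip test over 3 mutants.

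For RNA the authors mapped reads with STAR and normalized with DESeq2. Before their differential test they also corrected for a batch effect with RUVSeq. The main test here had no batch term. The deposited values are a signal, counts divided by a size factor per library, and 100% of the values above 0 were whole reads within 0.001, with 4711185 to 12585927 reads per library. log2(value + 1) was tested in R 4.3.3 with limma 3.58.1 (treat, trend) where a gene averaged 5 or more. That test calls *rnf2* with an adjusted p of 1.7e-08. Named genes are those called in the list, of which 1 is counted and not reported here. Where nothing says that libraries came from separate clutches, p-values measure the spread between these pools. edgeR 4.0.16 was run on the recovered reads. Same-numbered wildtype and mutant RNA libraries did not deviate together (correlations from −0.16 to 0.03), and the numbers were not used to pair them. Gene names came from the reference table of identifiers. The closing section gives the effect of the alternatives.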

Additional observations from a re-analysis of the deposited data

How the results depend on the processing

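Requiring the common stretch to cover at least 50% of the wt1 peak left 581 regions, of which 85.4%, 32.7% and 87.6% were kept in r2, r3 and r4 and 32.01% in all mutants. Peaks above stricter thresholds left 342 regions, with 16.96% kept in r3, 84.2% in r4 and 16.4% in all mutants. Counting only Rnf2 peaks shared by both wildtype replicates put the share kept in all mutants at 27.1%, and leaving out regions within 5000 bp of Rnf2 gave 84.9% in r2 and 85.1% in r4. Requiring a mutant peak over at least 50% of a region's bases gave 73.0%, 8.80% and 72.5%, and 7.89% in all mutants. Without one wildtype replicate there were 1478 to 1673 regions, and the shares were 65.7 to 67.9% in r2, 18.5 to 20.8% in r3, 66.7 to 68.2% in r4 and 17.7 to 19.96% in all mutants. Without one mutant the share kept in all the others was 24.6 to 72.9%, the highest without r3. The difference in share kept was 12.8 percentage points with input peaks left in place, 7.78 with stricter thresholds and 5.67 with 50% of bases. It reversed to −6.27 percentage points within bins of width. The causes of these shifts were not tested. No paired analysis was possible because the ChIP-seq genotypes share a single replicate number.

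For the RNA list, limma's plain test with a fold change filter of 1 on the log2 scale called 37 genes higher and 17 lower. Without wildtype libraries 11, 12 and 13 limma's treat called 6 and 3. With the replicate block, on same-numbered libraries alone, it called 3 and 0. The same libraries without the block also gave 3 and 0, where fewer libraries entered both fits. The share of all genes called was not counted in these settings, so their lower counts are not a result about the list. edgeR on the recovered reads called 11 and 8. The edgeR fit, the fit without the block, the split by distance, the single lists and the folds within bins of width were chosen after seeing the data. The unknown depth behind the peaks limits what a missing peak can show.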
